A study of Homo sapiens with 9 samples.

Results

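The genes described here are 46 regulators and machines of cell division: the cyclin-CDK engine that starts mitosis, the transcription factors of its genes, the mitotic kinases, spindle assembly factors, kinesin motors, condensin subunits, cytokinesis proteins and partners of the anaphase-promoting complex. They were chosen by name with earlier results of these data known, as were the other gene lists below. Of their symbols, 46 of 46 matched a human Ensembl ID among the 36601 genes counted, and all 46 held enough reads to be tested. The cells were LX2, an immortalised line derived from human hepatic stellate cells, the pericytes of the liver that become myofibroblasts in fibrosis. Cultures in medium with fetal bovine serum received 20 nM siRNA against YAP (siYAP), siRNA against TAZ (siTAZ) or non-targeting siRNA (siNT) by lipofection and were harvested after 7 days, with 3 libraries per group. YAP (gene YAP1) and TAZ (gene WWTR1) are coactivators at the end of the Hippo pathway. All values come from 1 cell line, siRNA sequences are not used here, and the replicates are called biological without a word on what set them apart, so the p-values cover the spread among these samples only, which may be technical.

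Genes of mitosis are transcribed in a wave that peaks in the G2 and M phases of the cell cycle. Their promoters share CCAAT boxes, bound by NF-Y, and the cell cycle genes homology region (CHR), bound by the MuvB complex, which represses these genes together with pocket proteins and E2F4 in resting cells and activates them together with B-MYB and FOXM1 in dividing cells. In hepatic stellate cells, entry into the cell cycle is a known part of activation by injury, and YAP and TAZ are known as drivers of proliferation in many tissues.

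Each library held 16498508 to 18752805 counts in genes, at which a floor of 3 counts equals 0.157 to 0.177 CPM (read counts scaled to a common library size by TMM, a method that matches libraries on the bulk of their genes); this floor covers counting error only. The lowest count of any of the 46 genes in a siYAP library was 269, for CDC25C. The targeted transcripts checked the labels: YAP1 averaged 26.3 ± 1.49 CPM after siYAP, 169.98 ± 8.01 after siTAZ and 209 ± 4.11 after siNT (SD, n = 3 each), and WWTR1 averaged 75.8 ± 0.522, 9.53 ± 0.917 and 62.00 ± 5.498 CPM in the same order. Against siNT, YAP1 was also lower after siTAZ, a log2 fold change of -0.30 (edgeR adjusted p = 2.42e-08). WWTR1 was higher after siYAP, by 0.29 (edgeR adjusted p = 6.31e-05). The part of these changes in the results was not tested. The 10 stellate cell markers, COL1A1 and COL3A1 the highest in every group, summed to 4382 to 4466 CPM in siYAP libraries, 9627 to 9790 in siTAZ libraries and 6509 to 6612 in siNT libraries. Sums over 6 hepatocyte markers were low, at 12.8 to 16.02, 0.866 to 2.02 and 1.78 to 2.004 CPM in the same order (TTR at 0). So were those over 6 leukocyte markers (11.7 to 14.6, 9.56 to 12.1 and 12.8 to 14.4 CPM). The same held for 5 endothelial markers (8.51 to 11.6, 3.36 to 4.48 and 7.87 to 8.57 CPM). The 5 cholangiocyte markers summed to 79.9 to 83.1, 68.4 to 72.1 and 50.04 to 52.7 CPM, nearly all SOX9. SOX9 was not low: its 80.0 CPM after siYAP exceeded the 41.2 CPM of the stellate marker PDGFRB there. Against siNT, SOX9 was higher on the log2 scale by 0.70 after siYAP and 0.48 after siTAZ. DES and DCN of the stellate list lay below 1 CPM in every group mean. The part of any of these lists in the results was not tested. Reads in no annotated gene made up 6.01 to 7.49% of siYAP libraries, 5.53 to 5.63% of siTAZ libraries and 4.73 to 5.13% of siNT libraries, highest in siYAP replicate 1. Without that library all 46 genes below were still called lower after siYAP.

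All 46 genes were lower after siYAP, and 31 of the 46 were lower, by much less, after siTAZ. Together they held 0.485, 0.502 and 0.479% of gene counts in the siYAP libraries, 0.899, 0.892 and 0.896% in the siTAZ libraries and 0.996, 1.02 and 0.992% in the siNT libraries. The 3 groups did not overlap, with the siTAZ libraries much nearer to siNT than to siYAP. Summed over the 46 genes, the level was 4759 ± 133 CPM after siYAP, 8980 ± 33.5 CPM after siTAZ and 10282 ± 122 CPM after siNT (SD, n = 3 each). In bulk RNA, fewer dividing cells and less transcript per dividing cell cannot be told apart. Against siNT, 46 of 46 genes were called lower after siYAP and 0 higher (edgeR quasi-likelihood test, Benjamini-Hochberg adjusted p under 0.05), where 33.4% of the 15560 genes tested were called lower; the 46 adjusted p-values from edgeR were at most 1.71e-11. The median log2 fold change was -1.15 over these genes and 0.02 over all genes tested, with a range of -2.09 (KIF20A) to -0.42 (CDC25B). More than 2-fold falls were called for 30 of the 46, against 8.97% of all genes tested. In every one of the 46, all 3 siYAP libraries lay below all 3 siNT libraries, as they did in 34.7% of all genes.

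After siTAZ, 31 of 46 genes were called lower and 0 higher (edgeR, adjusted p under 0.05), where 18.2% of the genes tested were called lower and 16.4% higher. The median log2 fold change was -0.20, against 0.01 over all genes, and the range ran from -0.59 (ANLN) to 0.06 (CDC25B), so that no fall reached 2-fold (1.77% of all genes were called lower by more). All 3 siTAZ libraries lay below all 3 siNT libraries in 33 of the 46 (22.8% of all genes) and above them in 2 (21.8% of all genes), FOXM1 and CDC25B, neither of which was called. The 15 genes not called were CKS1B, CDCA2, CDK1, CKS2, UBE2C, CDC25C, KIF4A, CCNA2, TOP2A, KIF20B, CDCA3, NUSAP1, AURKB, FOXM1 and CDC25B. Their 95% intervals lay between -0.25 and 0.15 on the log2 scale, so falls as large as those after siYAP lay outside them. Set directly against siYAP, 46 of 46 genes were called higher after siTAZ, against 33.0% of all genes, by a median of 0.92 on the log2 scale, between 0.29 (MKI67) and 1.77 (KIF20A). The comparisons share libraries: siNT serves both knockdowns.

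**Figure D1:**
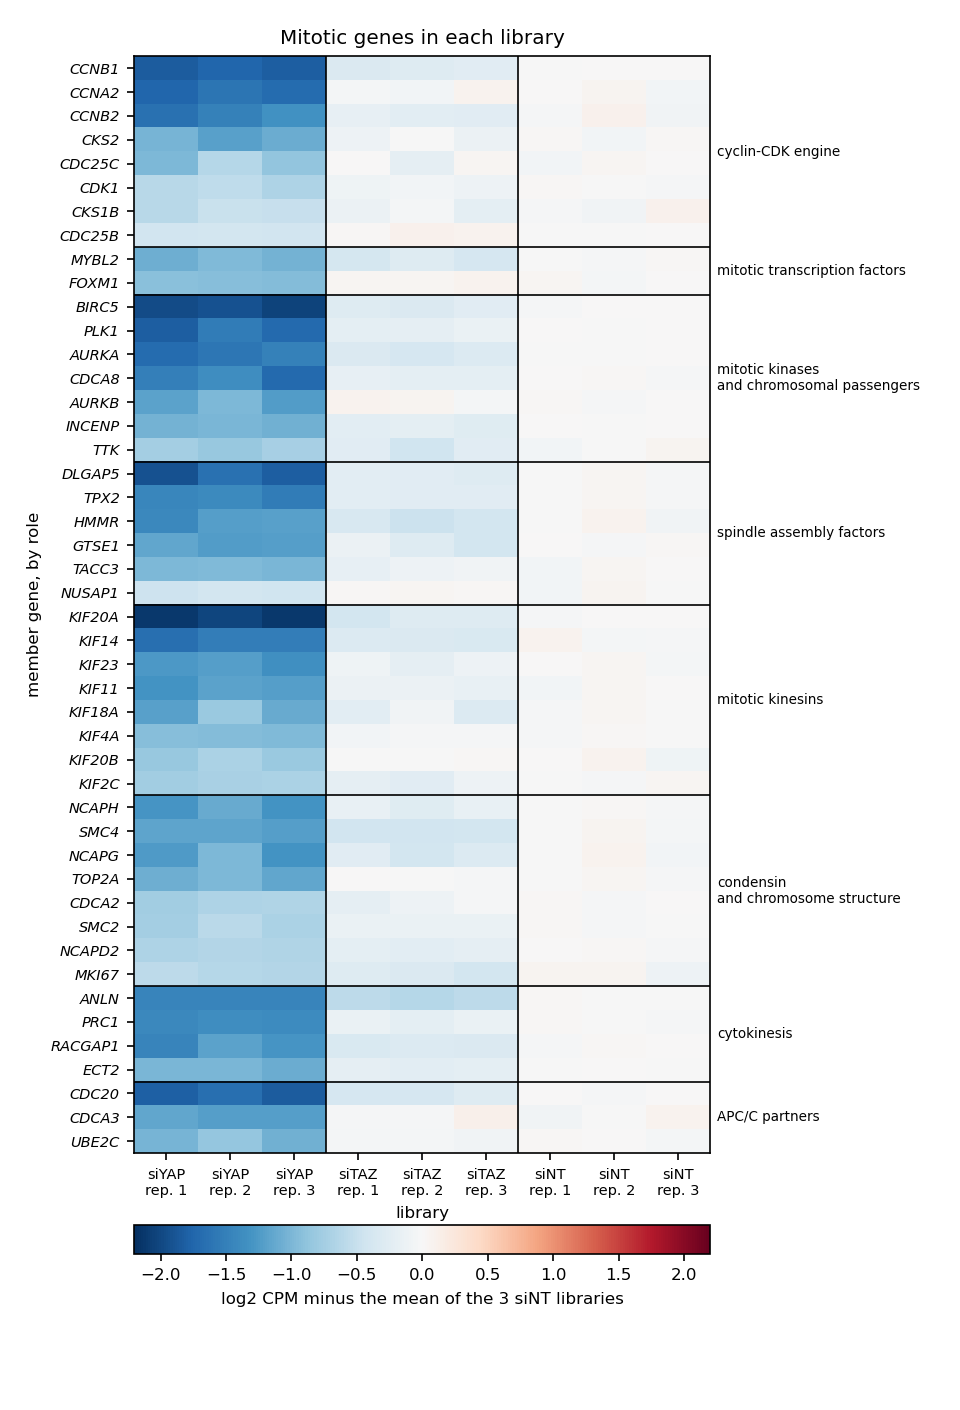
Level of each of the 46 genes (down the page, by role) in each of the 9 libraries (across), as log2 CPM minus the mean of the 3 siNT libraries; blue is lower and red higher. The 3 siYAP columns are blue in all 46 genes, deepest in KIF20A and BIRC5, and the siTAZ columns are pale.

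Promoters were read for the letters of the elements named above. RefSeq promoters on GRCh38.p14 (250 bases before to 50 after the start) were at hand for 38 of the 46 genes, 49 starts in all, but not for FOXM1, AURKA, BIRC5, TTK, TPX2, CDCA2, RACGAP1 and UBE2C. CHR letters (TTTGAA, its variant TTCGAA or its other variant TTTAAA, on either strand) stood in 77.6% of these 49 promoters, against 25.1% of the 34796 promoters in the table and 18.7% of those of genes tested. CCAAT, on either strand, stood in 71.4% against 34.6% of all promoters, and both elements stood in 63.3% against 9.72%. E2F letters were TTTGGCGC, the variant TTTCGCGC, the variant TTTCCCGC or the variant TTTGCCGC, on either strand. They stood in 6.12% (3 promoters), against 3.30% of all promoters and 4.77% of those of genes tested. The TEAD letters CATTCC, of the factors through which YAP and TAZ bind DNA, stood in 10.2% (5 promoters), against 14.04% and 11.6%. Matches are letters in a window, not sites of binding, and base composition was close: 62.1% G and C in the 49 promoters, 57.5% in all and 63.2% in those of genes tested.

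The following 7 promoters, 6 with both elements and 1 with neither, are given for the 150 bases before the RefSeq start. Gene coordinates further below are from GENCODE 29, in which a gene can begin further upstream. By those coordinates the KIF20A and NUSAP1 stretches lie wholly inside the gene. Those of CCNB1, CDC20, CKS1B and MYBL2 lie partly inside it. CHR letters and CCAAT are in capitals (TTCAAA and ATTGG are TTTGAA and CCAAT on the other strand). KIF20A at chr5:138178962-138179111 (plus strand), CCNB1 at chr5:69167000-69167149 (plus strand) and CDC20 at chr1:43358831-43358980 (plus strand) belong to genes with large falls after siYAP. NUSAP1 at chr15:41332731-41332880 (plus strand) and CKS1B at chr1:154974531-154974680 (plus strand) belong to genes with small falls, CKS2 at chr9:89311045-89311194 (plus strand) is the close relative of CKS1B that fell further, and MYBL2 at chr20:43666964-43667113 (plus strand) holds neither element in this window.
KIF20A: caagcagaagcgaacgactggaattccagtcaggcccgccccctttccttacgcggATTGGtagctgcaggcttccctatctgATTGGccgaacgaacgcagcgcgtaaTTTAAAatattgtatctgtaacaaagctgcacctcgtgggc
CCNB1: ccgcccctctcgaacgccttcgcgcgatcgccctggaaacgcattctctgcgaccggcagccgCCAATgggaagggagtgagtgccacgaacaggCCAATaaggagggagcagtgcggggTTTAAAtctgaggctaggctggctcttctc
CDC20: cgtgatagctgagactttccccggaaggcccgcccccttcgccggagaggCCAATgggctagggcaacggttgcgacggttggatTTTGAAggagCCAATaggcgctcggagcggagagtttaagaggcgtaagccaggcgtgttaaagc
NUSAP1: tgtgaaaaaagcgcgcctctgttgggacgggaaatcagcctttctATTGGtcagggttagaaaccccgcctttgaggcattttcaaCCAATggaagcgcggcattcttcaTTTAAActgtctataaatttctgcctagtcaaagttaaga
CKS1B: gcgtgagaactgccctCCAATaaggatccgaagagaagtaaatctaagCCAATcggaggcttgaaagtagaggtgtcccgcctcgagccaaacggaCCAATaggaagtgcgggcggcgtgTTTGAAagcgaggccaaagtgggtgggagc
CKS2: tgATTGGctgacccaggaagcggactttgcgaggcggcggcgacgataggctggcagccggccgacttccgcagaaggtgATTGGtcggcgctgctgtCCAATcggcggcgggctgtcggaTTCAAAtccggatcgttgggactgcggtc
MYBL2: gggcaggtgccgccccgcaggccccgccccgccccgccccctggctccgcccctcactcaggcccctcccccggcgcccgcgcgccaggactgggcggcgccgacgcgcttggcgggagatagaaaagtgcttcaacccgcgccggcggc

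In KIF20A, CCNB1 and CDC20, at least 1 CCAAT lay upstream of CHR letters, and the same held in NUSAP1, CKS1B and CKS2. No CHR and CCAAT match shared a base in these promoters. DLGAP5, also with a large fall after siYAP, is not printed and had another order before the start. Its CHR letters at -138 and -109 lay upstream of its CCAAT at -87 and -22, and a further CHR match stood at 3. Over the 49 promoters, CHR letters were most frequent 30 to 11 bases before the start, where 28.6% of promoters had a match against 1.74% of promoters of tested genes. CCAAT was most frequent 70 to 51 bases before the start, in 32.7% against 7.57%. Counted per gene, 34 of 38 held CHR letters (89.5%, against 29.1% of all genes in the table), and those without were AURKB, CCNA2, MYBL2 and TACC3. CCAAT was held by 31 of 38 genes (81.6% against 39.8%), and those without were ANLN, KIF2C, MYBL2, NCAPG, SMC2, SMC4 and TACC3. After siYAP the median log2 fold change was -1.18 over the 34 genes with CHR letters and -1.08 over the 4 without, given as a description with no test. After siTAZ the corresponding medians were -0.20 and -0.07.

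**Figure D2:**
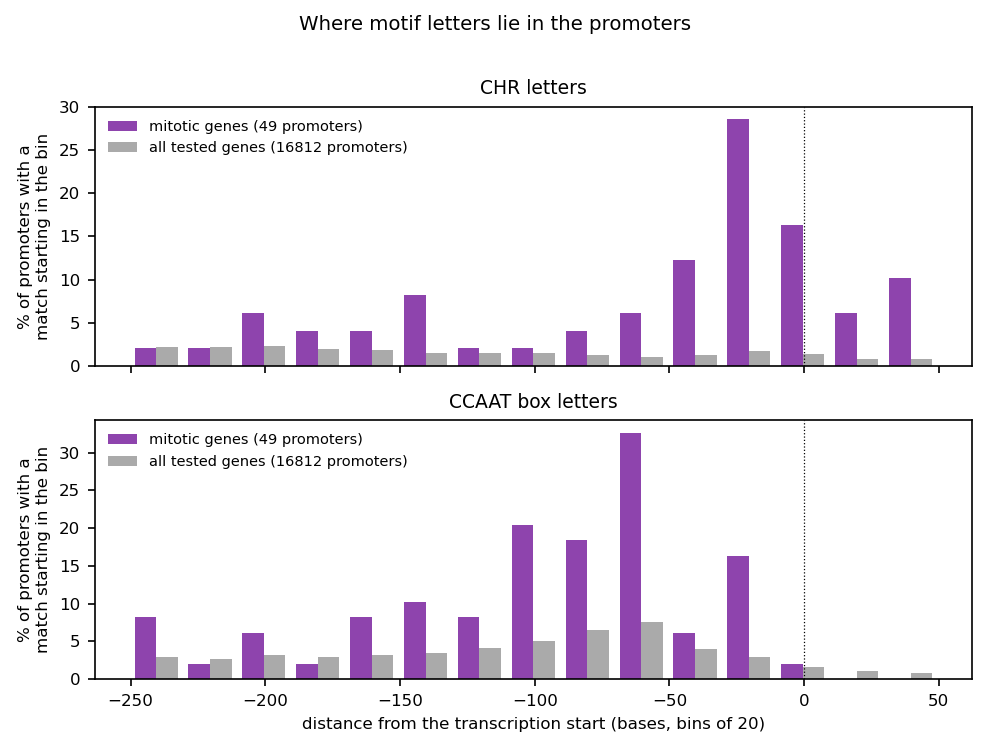
Share of promoters (percent, vertical) with CHR letters (upper panel) or CCAAT (lower panel) starting in each bin of 20 bases by distance from the transcription start (horizontal), for the 49 promoters of the mitotic genes (purple) and the 16812 promoters of genes tested (grey). The purple bars peak just before the start for CHR letters, at 28.6%, and further upstream for CCAAT, at 32.7%.

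The cyclin-CDK engine holds 8 of the genes: CDK1, the kinase whose activation starts mitosis, its cyclins CCNB1, CCNB2 and CCNA2, the small CDK-binding subunits CKS1B and CKS2, and the phosphatases CDC25B and CDC25C, which strip inhibitory phosphates from CDK1. All 8 were called lower after siYAP, against 33.4% of all genes, with a median log2 fold change of -0.96. After siTAZ 2 were called lower, CCNB1 and CCNB2, a share near the 18.2% of all genes. CCNB1 (ENSG00000134057; chromosome 5, 69167010 to 69178245, plus strand; this and later gene coordinates are from GENCODE 29, build GRCh38) had 107, 113 and 107 CPM in the siYAP libraries, 304, 310.4 and 319.8 in the siTAZ libraries and 374, 382 and 379 in the siNT libraries. No library of one group reached those of another, with siTAZ between siYAP and siNT. CCNB1 was 3.47-fold lower after siYAP, a log2 fold change of -1.79 ± 0.04 (SE; edgeR adjusted p = 1.41e-47), and 1.21-fold lower after siTAZ, -0.28 ± 0.04 (SE; edgeR adjusted p = 1.13e-09). Cyclin A2 (CCNA2), which also serves S phase, stood at 54.96, 59.8 and 56.5 CPM in the siYAP libraries, 178, 177 and 192 in the siTAZ libraries and 183, 191 and 176 in the siNT libraries. Its siYAP libraries lay far below the rest, while its siTAZ and siNT libraries overlapped: the log2 fold change was -1.68 ± 0.05 (SE; edgeR adjusted p = 9.12e-41) after siYAP and -0.01 ± 0.04 (SE; edgeR adjusted p = 0.903) after siTAZ. CCNB2 fell by 1.48 and by 0.23 on the log2 scale after siYAP and after siTAZ.

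CDK1 itself stood at 77.9, 80.96 and 74.4 CPM in the siYAP libraries, 111, 113 and 109.5 in the siTAZ libraries and 122, 118 and 117 in the siNT libraries. It was 1.53-fold lower after siYAP, with all siYAP libraries below the others, and its siTAZ difference of -0.09 ± 0.05 (SE; edgeR adjusted p = 0.12) did not pass. CKS2 stood at 33.8, 29.96 and 32.3 CPM in the siYAP libraries, 63.5, 68.8 and 62.9 in the siTAZ libraries and 70.2, 66.1 and 70.3 in the siNT libraries, and CKS1B at 46.3, 50.5 and 49.7 CPM in the siYAP libraries, 64.9, 68.5 and 60.8 in the siTAZ libraries and 69.8, 67.1 and 75.7 in the siNT libraries. In siNT libraries the CPM of these relatives was nearly equal; after siYAP CKS2 was 2.15-fold and CKS1B 1.45-fold lower, and neither passed after siTAZ. CDC25C, at 14.6, 18.6 and 15.9 CPM in the siYAP libraries, 29.01, 25.1 and 29.9 in the siTAZ libraries and 27.8, 29.8 and 29.1 in the siNT libraries, was 1.76-fold lower after siYAP, -0.82 ± 0.09 (SE; edgeR adjusted p = 1.71e-11). CDC25B stood at 217, 220.2 and 217 CPM in the siYAP libraries, 297, 309.8 and 306 in the siTAZ libraries and 289.96, 289.6 and 293 in the siNT libraries, and its log2 fold change after siYAP, -0.42 ± 0.04 (SE; edgeR adjusted p = 1.36e-16), was the smallest in size of the 46. After siTAZ its libraries lay just above siNT without passing, 0.06 ± 0.03 (SE; edgeR adjusted p = 0.156). Reads of CKS1B and CCNB2 may be shared with named pseudogenes of these genes, and CCNA2 and CDC25C overlap exons of a gene on the other strand.

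**Figure D3:**
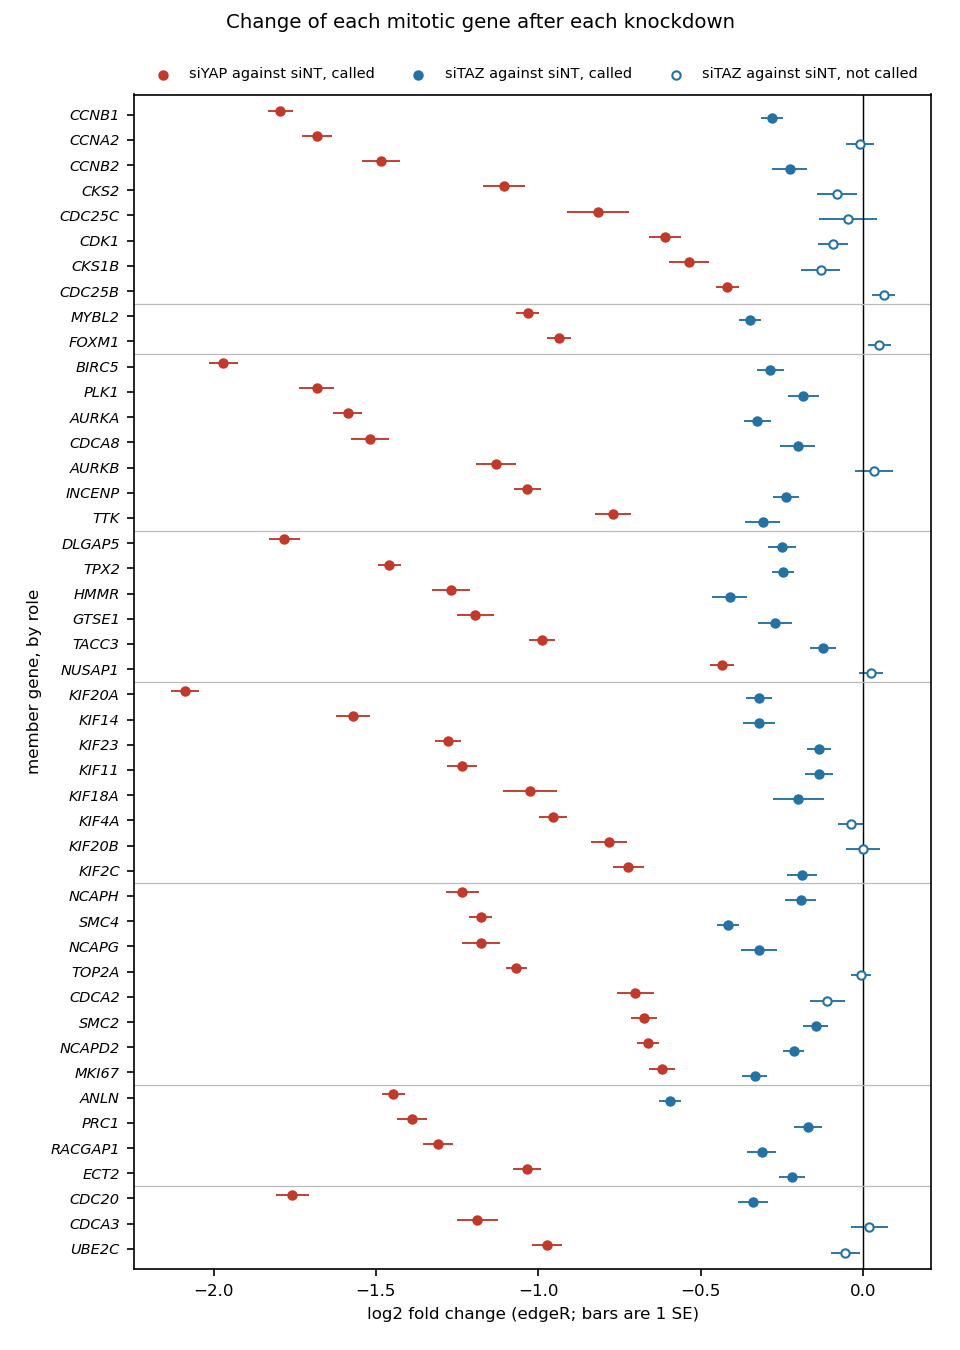
Log2 fold change of each of the 46 genes against siNT (horizontal; dots with bars of 1 SE, edgeR) for siYAP (red) and siTAZ (blue; open where not called), by role down the page. Red dots run from -2.09 to -0.42 and blue dots from -0.59 to 0.06.

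MYBL2 encodes B-MYB and FOXM1 a forkhead factor; both join MuvB at mitotic promoters. MYBL2 (chromosome 20, 43667019 to 43716496, plus strand) stood at 225, 243 and 230.4 CPM in the siYAP libraries, 362, 389.7 and 371 in the siTAZ libraries and 472, 469 and 487 in the siNT libraries. The 3 groups were separate, and the log2 fold change was -1.03 ± 0.04 (SE; edgeR adjusted p = 8.16e-36) after siYAP and -0.35 ± 0.03 (SE; edgeR adjusted p = 5.69e-13) after siTAZ. FOXM1 (chromosome 12, 2857681 to 2877155, minus strand) stood at 144.6, 143.7 and 141.0 CPM in the siYAP libraries, 282.2, 281.0 and 287.4 in the siTAZ libraries and 280.8, 264.9 and 275.3 in the siNT libraries. It was 1.91-fold lower after siYAP, -0.94 ± 0.04 (SE; edgeR adjusted p = 2.68e-32), whereas its siTAZ libraries lay marginally above siNT, 0.05 ± 0.04 (SE; edgeR adjusted p = 0.293), without passing. FOXM1 overlaps exons of ITFG2 on the other strand. Subunits of MuvB and of DREAM, the repressive complex of MuvB with pocket proteins and E2F4, were called on both sides. Of 11 DREAM and MuvB genes, 3 were called higher and 4 lower after siYAP (33.8% and 33.4% of all genes). Their median log2 fold change was -0.09. TFDP2, an E2F dimerisation partner, was 2.89-fold lower at 28.1 ± 2.93 CPM after siYAP against 81.2 ± 2.799 after siNT (SD, n = 3 each), its relative TFDP1 was lower by 0.27 and the MuvB subunit LIN9 by 0.59 on the log2 scale. The histone-binding subunit RBBP4, the DNA-binding subunit LIN54 and the pocket protein p130 (RBL2) were higher on the log2 scale by 0.28, 0.17 and 0.12. After siTAZ, 1 of the 11 was called lower (TFDP1, -0.37) and 1 higher (LIN52, 0.24), where 18.2% and 16.4% of all genes were.

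Mitotic kinases and chromosomal passengers showed the deepest median of the 8 role groups after siYAP, -1.52 over 7 genes, all called lower (33.4% of all genes). PLK1 and AURKA mature the centrosomes and promote CDK1 activation, TTK is a spindle checkpoint kinase, and AURKB, INCENP, BIRC5 (survivin) and CDCA8 (borealin) form the chromosomal passenger complex that corrects faulty attachments. BIRC5 (chromosome 17, 78214186 to 78225636, plus strand) stood at 50.5, 52.5 and 47.9 CPM in the siYAP libraries, 162, 159 and 165 in the siTAZ libraries and 195, 199 and 198 in the siNT libraries. The siYAP libraries lay lowest by a wide margin, a 3.92-fold difference, -1.97 ± 0.05 (SE; edgeR adjusted p = 3.60e-45), and siTAZ stood between, -0.28 ± 0.04 (SE; edgeR adjusted p = 4.95e-08). TTK stood at 59.6, 55.9 and 60.4 CPM in the siYAP libraries, 83.7, 74.04 and 84.3 in the siTAZ libraries and 95.4, 99.8 and 105 in the siNT libraries, without overlap between groups, and had the smallest fall of these 7 after siYAP, -0.77 ± 0.06 (SE; edgeR adjusted p = 1.57e-19). After siTAZ the log2 fold change of TTK was -0.31 ± 0.05 (SE; edgeR adjusted p = 3.72e-06). AURKA stood at 67.5, 72.7 and 78.4 CPM in the siYAP libraries, 176, 169 and 178 in the siTAZ libraries and 218, 218 and 219.9 in the siNT libraries. It was 3.004-fold lower after siYAP and 1.25-fold lower after siTAZ, -0.33 ± 0.04 (SE; edgeR adjusted p = 1.59e-09). AURKB, at 34.7, 39.5 and 33.6 CPM in the siYAP libraries, 82.6, 82.3 and 76.8 in the siTAZ libraries and 80.5, 76.99 and 78.7 in the siNT libraries, was 2.19-fold lower after siYAP, and its siTAZ and siNT libraries overlapped, 0.03 ± 0.06 (SE; edgeR adjusted p = 0.696). Within the passenger complex the log2 fold changes after siYAP were -1.97, -1.52, -1.13 and -1.03 for BIRC5, CDCA8, AURKB and INCENP. PLK1 fell by 1.68 after siYAP and by 0.18 after siTAZ. In all, 6 of the 7 genes, all but AURKB, were called lower after siTAZ (18.2% of all genes).

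The 6 spindle assembly factors also fell. DLGAP5 (HURP) and TPX2 build and stabilise spindle microtubules near chromosomes, HMMR, GTSE1 and TACC3 bind spindle microtubules, and NUSAP1 bundles them. All 6 were called lower after siYAP (median -1.23) and 5 after siTAZ, against 33.4% and 18.2% of all genes. DLGAP5 (chromosome 14, 55148112 to 55191678, minus strand) stood at 52.7, 63.6 and 56.7 CPM in the siYAP libraries, 169.9, 167 and 164 in the siTAZ libraries and 198, 204 and 195 in the siNT libraries. The groups were separate, and the log2 fold change was -1.78 ± 0.05 (SE; edgeR adjusted p = 2.74e-41) after siYAP and -0.25 ± 0.04 (SE; edgeR adjusted p = 3.82e-06) after siTAZ. NUSAP1 stood at 199, 207 and 203 CPM in the siYAP libraries, 277, 281 and 278 in the siTAZ libraries and 264, 285 and 273 in the siNT libraries. It was only 1.35-fold lower after siYAP, -0.43 ± 0.04 (SE; edgeR adjusted p = 1.33e-16), and its siTAZ and siNT libraries overlapped. HMMR, at 42.1, 48.2 and 49.1 CPM in the siYAP libraries, 88.02, 80.3 and 84.4 in the siTAZ libraries and 111, 118 and 106.4 in the siNT libraries, had the third largest fall of the 46 after siTAZ, -0.41 ± 0.05 (SE; edgeR adjusted p = 4.42e-09), beside -1.27 ± 0.06 (SE; edgeR adjusted p = 1.74e-29) after siYAP. HMMR overlaps an antisense gene. TPX2, among the most abundant of these transcripts, fell by 1.46 after siYAP and by 0.25 after siTAZ, GTSE1 by 1.19 and 0.27, and TACC3 by 0.99 and 0.12. The siTAZ call of TACC3 was lost without siNT replicate 2 and without siTAZ replicate 1.

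Mitotic kinesins, the motors of the spindle, numbered 8. All 8 were called lower after siYAP (median -1.13) and 6 after siTAZ, against 33.4% and 18.2% of all genes. KIF20A, the motor that carries Aurora B and PLK1 to the midzone in anaphase, had the largest siYAP fall of all 46. It (chromosome 5, 138178719 to 138187715, plus strand) stood at 64.01, 69.2 and 63.9 CPM in the siYAP libraries, 212, 230.6 and 229 in the siTAZ libraries and 274, 282 and 283 in the siNT libraries. The siYAP libraries lay far below both other groups, by 4.26-fold against siNT, -2.09 ± 0.04 (SE; edgeR adjusted p = 3.89e-48), and siTAZ was 1.25-fold lower than siNT, -0.32 ± 0.04 (SE; edgeR adjusted p = 3.98e-10). KIF2C, which depolymerises microtubules at centromeres, stood at 76.7, 78.9 and 80.6 CPM in the siYAP libraries, 113, 109 and 119.99 in the siTAZ libraries and 129, 127 and 134 in the siNT libraries, again in separate groups, and had the smallest fall of the 8, -0.72 ± 0.05 (SE; edgeR adjusted p = 2.17e-21). Between them after siYAP came the midbody motor KIF14 (-1.57), the centralspindlin motor KIF23 (-1.28), the bipolar motor KIF11 (-1.23), the chromosome-aligning KIF18A (-1.03), the chromokinesin KIF4A (-0.95) and KIF20B (-0.78, all log2 fold changes). After siTAZ, KIF4A and KIF20B were not called (-0.04 and 0.000231), and KIF18A was called at -0.20 ± 0.08 (SE; edgeR adjusted p = 0.0423). That call was lost without any one of the siNT libraries and without siTAZ replicate 1 or 3, the call of KIF23 without siTAZ replicate 2 and that of KIF11 without siNT replicate 2.

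Nearly all mitotic motors and spindle genes examined outside the 46 were also lower after siYAP, while kinesins of intracellular transport were called in each direction about as often as all genes. Of 20 other mitotic kinesins and spindle genes, 19 were called lower and 0 higher (33.4% and 33.8% of all genes), with a median log2 fold change of -1.13. Among them PBK, a mitotic kinase, averaged 36.97 ± 0.992 CPM after siYAP against 138 ± 8.35 after siNT, CEP55, an abscission factor, 47.5 ± 3.05 against 157 ± 2.49, and ASPM, a spindle pole protein, 69.7 ± 2.22 against 220.3 ± 6.11 (SD, n = 3 each). The exception, KIF24, had a log2 fold change of 0.11. The differences of PBK, CEP55 and ASPM were 3.74-, 3.29- and 3.16-fold. After siTAZ 11 of the 20 were called lower and 0 higher (18.2% and 16.4% of all genes), among them CKAP2 (-0.30) and SPAG5 (-0.26), spindle microtubule proteins. Of 20 transport kinesin genes, 5 were called higher and 7 lower after siYAP (33.8% and 33.4% of all genes), with a median of 0.07. KIF3B and KIF3A, motors of cilia, and KIF21B were higher on the log2 scale by 0.96, 0.77 and 1.15, while the conventional kinesin KIF5B, KIF1C and the scarce KIF26A had log2 fold changes of -0.56, -0.37 and -1.502. After siTAZ 2 transport kinesins were called higher and 8 lower (16.4% and 18.2% of all genes). Over the 20 transport genes, called or not, log2 fold changes ran from -2.59 to 1.15 after siYAP and from -1.78 to 0.79 after siTAZ.

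Condensin I packs chromosomes with the ATPases SMC2 and SMC4, the kleisin NCAPH and the HEAT-repeat subunits NCAPD2 and NCAPG. TOP2A untangles DNA, MKI67 (Ki-67) coats mitotic chromosomes and CDCA2 (Repo-Man) brings a phosphatase to chromatin. All 8 genes were called lower after siYAP (median -0.88) and 6 after siTAZ, against 33.4% and 18.2% of all genes. NCAPH stood at 56.5, 64.4 and 55.9 CPM in the siYAP libraries, 125, 116 and 125 in the siTAZ libraries and 138, 141 and 137 in the siNT libraries, in separate groups, with -1.23 ± 0.05 (SE; edgeR adjusted p = 1.28e-31) after siYAP. SMC4 (chromosome 3, 160399274 to 160434962, plus strand) stood at 221, 223 and 214 CPM in the siYAP libraries, 371, 369 and 375 in the siTAZ libraries and 492, 515 and 482 in the siNT libraries. Its log2 fold change after siTAZ, -0.42 ± 0.03 (SE; edgeR adjusted p = 1.65e-16), was the second largest in size of the 46, beside -1.18 ± 0.03 (SE; edgeR adjusted p = 1.36e-39) after siYAP. NCAPG, at 56.98, 67.9 and 54.8 CPM in the siYAP libraries, 113, 102 and 109.95 in the siTAZ libraries and 135, 142 and 129.5 in the siNT libraries, was lower by 1.18 after siYAP and by 0.32 after siTAZ. SMC4 and NCAPG overlap exons of genes on the other strand and have named pseudogenes. SMC2 stood at 146, 163 and 151 CPM in the siYAP libraries, 222, 222 and 221 in the siTAZ libraries and 251, 241 and 244 in the siNT libraries, a fall of 0.67 on the log2 scale after siYAP, and NCAPD2 fell by 0.66. The log2 fold changes of the 5 subunits of this complex ran between -1.23 and -0.66.

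TOP2A, the most counted of the 46, stood at 505, 532 and 476 CPM in the siYAP libraries, 1065, 1052 and 1040.0 in the siTAZ libraries and 1047, 1086 and 1037 in the siNT libraries. It was 2.096-fold lower after siYAP, -1.07 ± 0.03 (SE; edgeR adjusted p = 6.75e-39), and its siTAZ and siNT libraries overlapped, -0.01 ± 0.03 (SE; edgeR adjusted p = 0.909). The proliferation marker MKI67 stood at 262, 252 and 247 CPM in the siYAP libraries, 321, 311 and 296 in the siTAZ libraries and 405, 406 and 358 in the siNT libraries. The groups were separate, with siTAZ between the others: the log2 fold change was -0.62 ± 0.04 (SE; edgeR adjusted p = 1.71e-19) after siYAP, -0.33 ± 0.04 (SE; edgeR adjusted p = 7.72e-10) after siTAZ, and the siTAZ libraries were above siYAP by only 0.29 ± 0.04 (SE; edgeR adjusted p = 1.17e-08), the smallest such difference of the 46. Cohesin, condensin II and separase genes fell in most cases after siYAP: 13 of 15 were called lower and 1 higher (33.4% and 33.8% of all genes), with a median of -0.62. The cohesin ATPase SMC1A averaged 181 ± 5.19 CPM after siYAP against 395 ± 21.98 after siNT (SD, n = 3 each), 2.18-fold lower, separase (ESPL1) was 2.18-fold and the cohesin subunit STAG2 1.91-fold lower, and the cohesin loader NIPBL was higher by 0.16 on the log2 scale. After siTAZ 6 of the 15 were called lower and 0 higher (18.2% and 16.4% of all genes), among them sororin (CDCA5, -0.26) and the condensin II subunit NCAPG2 (-0.23).

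Cytokinesis was the role group in which every gene was called lower after both knockdowns (33.4% and 18.2% of all genes after siYAP and siTAZ). ANLN (anillin) scaffolds the contractile ring, PRC1 bundles midzone microtubules, and RACGAP1 and ECT2 switch on RhoA at the cleavage plane. The median log2 fold change of the 4 was -1.35 after siYAP and -0.27 after siTAZ. ANLN (chromosome 7, 36389806 to 36453791, plus strand) stood at 179, 179.6 and 179.9 CPM in the siYAP libraries, 329.5, 316 and 327 in the siTAZ libraries and 497, 486 and 485 in the siNT libraries. The 3 groups were widely separate: the fall was 2.73-fold after siYAP, -1.45 ± 0.03 (SE; edgeR adjusted p = 1.93e-44), and 1.51-fold after siTAZ, -0.59 ± 0.03 (SE; edgeR adjusted p = 1.52e-23), the largest of the 46 there. ECT2 stood at 91.4, 91.5 and 85.97 CPM in the siYAP libraries, 159.6, 156 and 158 in the siTAZ libraries and 183, 186 and 182 in the siNT libraries, with -1.04 ± 0.04 (SE; edgeR adjusted p = 9.04e-32) after siYAP and -0.22 ± 0.04 (SE; edgeR adjusted p = 1.10e-05) after siTAZ. PRC1 fell by 1.39 and 0.17, and RACGAP1 by 1.31 and 0.31, after siYAP and after siTAZ. ANLN, PRC1 and RACGAP1 overlap exons of genes on the other strand.

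**Figure D4:**
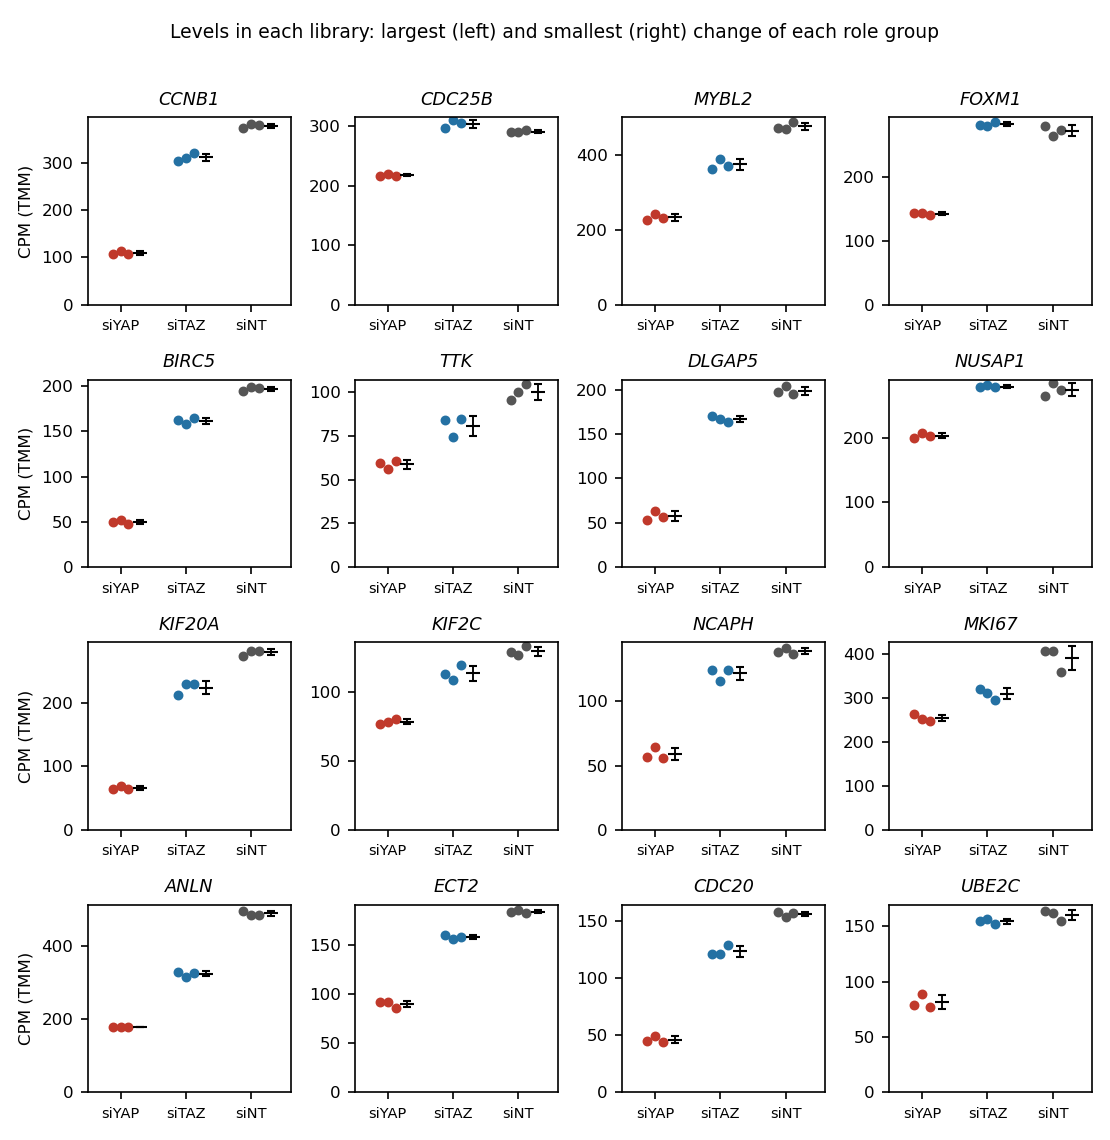
CPM (TMM-scaled, vertical) in each library for the gene with the largest and the gene with the smallest siYAP change of each role group; dots are libraries, and bars are the mean and SD of 3. In all 16 panels the siYAP dots lie below the siNT dots, and the siTAZ dots lie above the siYAP dots, with those of CDC25B and FOXM1 also just above siNT.

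Of the partners of the anaphase-promoting complex (APC/C), the ubiquitin ligase that ends mitosis, CDC20 activates it, UBE2C supplies its ubiquitin, and CDCA3 is one of its substrates. CDC20 (chromosome 1, 43358955 to 43363203, plus strand) stood at 44.9, 49.6 and 43.6 CPM in the siYAP libraries, 121, 121 and 128 in the siTAZ libraries and 158, 154 and 156 in the siNT libraries. The groups were separate, with a 3.38-fold fall after siYAP, -1.76 ± 0.05 (SE; edgeR adjusted p = 4.31e-40), and a 1.27-fold fall after siTAZ, -0.34 ± 0.05 (SE; edgeR adjusted p = 8.91e-09). UBE2C stood at 78.9, 88.6 and 76.8 CPM in the siYAP libraries, 155, 156 and 152 in the siTAZ libraries and 164, 162 and 155 in the siNT libraries, a log2 fold change of -0.97 ± 0.05 (SE; edgeR adjusted p = 2.39e-28) after siYAP; it did not pass after siTAZ, -0.05 ± 0.04 (SE; edgeR adjusted p = 0.373), nor did CDCA3, which fell by 1.19 after siYAP. CDC20 and UBE2C have named pseudogenes. Of 17 core subunits and inhibitors of the complex, 12 were called lower and 1 higher after siYAP (33.4% and 33.8% of all genes), and the list's median log2 fold change was -0.40. UBE2S, which extends ubiquitin chains, averaged 107 ± 9.26 CPM after siYAP against 251 ± 12.7 after siNT (SD, n = 3 each), the core subunit CDC27 was 2.04-fold and ANAPC7 1.67-fold lower, and ANAPC2 was higher by 0.20 on the log2 scale. After siTAZ 3 were called lower, UBE2S (-0.35) and ANAPC11 (-0.18) among them, and 3 higher, ANAPC16 (0.29) and ANAPC5 (0.13) among them, shares near those of all genes (18.2% and 16.4%).

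Inhibitors and brakes of CDK1 were called in both directions. Of 11 such genes 9 were tested, and after siYAP 4 were called higher and 4 lower (33.8% and 33.4% of all genes). CDKN1A, the CDK inhibitor p21, stood at 999, 1112 and 1089 CPM in the siYAP libraries, 155, 170.3 and 147 in the siTAZ libraries and 52.9, 55.6 and 50.6 in the siNT libraries. The order of the groups was the reverse of that of the mitotic genes, with siYAP 20.1-fold and siTAZ 2.97-fold above siNT. BTG2, an antiproliferative gene, stood at 93.6, 98.97 and 94.2 CPM in the siYAP libraries, 14.4, 14.96 and 14.02 in the siTAZ libraries and 5.19, 5.06 and 4.02 in the siNT libraries, 20.1-fold and 3.04-fold above siNT. GADD45A, a stress-induced inhibitor of the CDK1 and cyclin B1 complex, was 1.66-fold higher after siYAP, and its log2 fold change after siTAZ of -0.07 did not pass. Among those lower after siYAP were its relative GADD45B (-1.52) and the checkpoint kinase CHEK1 (-0.77, log2 fold changes). WEE1, which phosphorylates CDK1 to hold it inactive, was higher on the log2 scale by 0.36 after siYAP and 0.46 after siTAZ, while its relative PKMYT1 was lower by 0.62 and 0.32. After siTAZ 3 of the 9 were called higher and 1 lower (16.4% and 18.2% of all genes). WEE1 was named after its values were seen.

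Ratios between transcripts within a library compare the genes of a pair without any scaling. A ratio of counts includes the lengths of both transcripts, so it is read between groups only. The log2 ratio of CCNB1 over CDK1, cyclin over its kinase, was 0.49 ± 0.04 in siYAP, 1.48 ± 0.05 in siTAZ and 1.67 ± 0.04 in siNT libraries (SD, n = 3 each). That is 1.40 CCNB1 counts per CDK1 count after siYAP, against 3.18 after siNT. CKS2 over CKS1B was -0.61 ± 0.15 in siYAP, 0.01 ± 0.04 in siTAZ and -0.04 ± 0.06 in siNT libraries, and NCAPH over SMC2, kleisin over ATPase of condensin, was -1.38 ± 0.05 in siYAP, -0.87 ± 0.06 in siTAZ and -0.82 ± 0.05 in siNT libraries. In both, siYAP stood apart and siTAZ was close to siNT. TOP2A over TOP2B, the form of the enzyme that is not tied to division, was 1.63 ± 0.08 in siYAP, 2.43 ± 0.03 in siTAZ and 2.45 ± 0.04 in siNT libraries. TOP2B itself fell by 0.24 after siYAP on the log2 scale (edgeR adjusted p = 4.36e-07). CDC25C over CDC25B was -3.74 ± 0.17 in siYAP, -3.45 ± 0.16 in siTAZ and -3.33 ± 0.05 in siNT libraries. AURKA over AURKB was 1.02 ± 0.18 in siYAP, 1.11 ± 0.09 in siTAZ and 1.47 ± 0.03 in siNT libraries, so that here both knockdowns lay below siNT. For each of the 6 ratios the siYAP libraries lay wholly below the siNT libraries. In every pair the first gene is the one with the larger fall after siYAP. The shared direction therefore restates the fold changes and is no separate result. The exact two-sided permutation test gave p = 0.1 for siYAP against siNT in each, the smallest that 3 against 3 libraries allow, so 0.05 cannot be reached. Of 18 tests (6 ratios in 3 comparisons), 12 were at 0.1, including siTAZ against siNT for CCNB1 over CDK1 and AURKA over AURKB, and no adjusted value can be smaller.

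**Figure D5:**
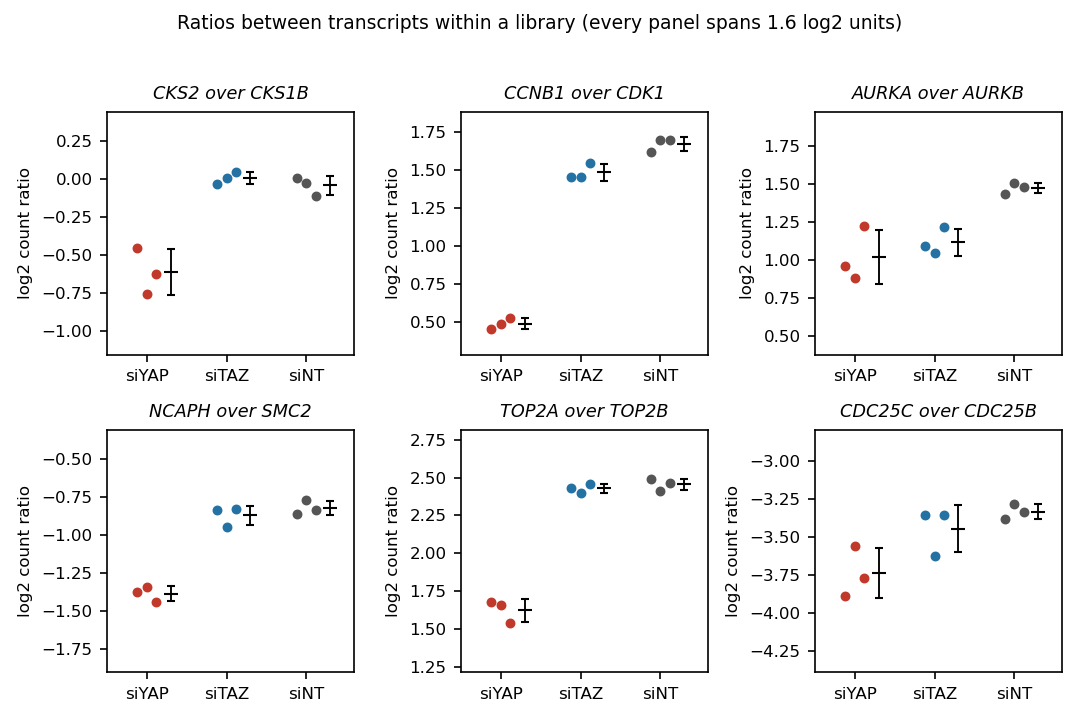
Log2 ratio of counts of a pair of transcripts in each library (vertical; every panel spans the same number of log2 units), with bars for the mean and SD of 3. In all 6 panels the siYAP dots lie below the siNT dots, and CCNB1 over CDK1 shows the widest gap, with means of 0.49 and 1.67. The first gene of each pair is the one that fell further after siYAP.

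Per length (CPM per kilobase of exon, GENCODE 29), the order of the levels changed with the knockdown. In siNT libraries the highest were MYBL2 (171), TOP2A (164), TPX2 (158), CCNB1 (148) and UBE2C (125), and the lowest KIF18A (9.31) and CDC25C (8.65). In siYAP libraries the highest were MYBL2 (83.8), TOP2A (78.3) and NUSAP1 (70.5), with BIRC5 at rank 35 of 46, against rank 18 in siNT libraries, and KIF20A at rank 27, against 12. In siTAZ libraries the leading genes were TOP2A (163), MYBL2 (135) and TPX2 (133). Of the 46 genes, 17 overlap exons of another counted gene, in each case on the other strand, and since it is not known whether counting used strand, reads of such pairs cannot be told apart. KIF20A and PLK1 are among these 17. Of the other 29, 29 were called lower after siYAP and 19 after siTAZ (33.4% and 18.2% of all genes). Pseudogenes named after them exist for 11 of the 46, AURKA, DLGAP5, MKI67, NCAPD2 and RACGAP1 among them. Of the 22 genes with neither limit, 22 were called lower after siYAP and 14 after siTAZ (the same shares of all genes apply).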

How the data were processed

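Raw read counts per Ensembl gene were deposited by the authors, 1 file per library, with no normalization. Per the submitters' processing notes, reads passed through STAR 2.5.0c, Trim Galore, Picard, SAMtools and HTSeq, in an order not stated; the notes name mm10, a mouse build, whereas all gene IDs are human, so neither the build nor the annotation nor the use of strand in counting is known. Libraries were grouped by their titles. Reads in no gene (4.73 to 7.49% of a library) and ambiguous reads (6.33 to 6.91%) stayed out.

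With R 4.3.3 and edgeR 4.0.16, genes passing filterByExpr (minimum count 10, minimum total 15; 15560 genes) were scaled by TMM and fitted over all 9 libraries by a robust quasi-likelihood model (common biological coefficient of variation 0.0469). All tests were two-sided, p-values were adjusted over the 15560 genes by Benjamini-Hochberg, and called means an adjusted p under 0.05. Fits were tested on simulated data. Alternatives used limma 3.58.1 and DESeq2 1.42.0. RefSeq promoters were searched on GRCh38.p14. The 46 genes, their role groups and the other gene lists were chosen with earlier results of these data known. Named in full are the largest and the smallest siYAP change of each role group, FOXM1, MYBL2, the 8 largest called siTAZ changes and the genes of the ratios; other lists name up to 3 called genes with the smallest p per direction for siYAP and up to 2 for siTAZ.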

Additional observations from a re-analysis of the deposited data

How the results depend on the processing

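After siYAP 46 of 46 genes were called lower under every alternative run (RLE and upper-quartile scaling, no filter, a CPM of at least 1 in 3 libraries, an adjusted p under 0.01, limma-voom, DESeq2, a fit of the compared groups only, omission of each library) except edgeR's test against a fold of 1.5, which kept 41; the siTAZ count was 28 to 31 and against a fold of 1.5 it was 0, since that test asks for larger changes, and siTAZ against siYAP gave 46, or 36 against a fold of 1.5. The median after siYAP was -1.12 with upper-quartile scaling and -1.18 to -1.12 with a library left out, and that of siTAZ against siYAP 0.91 to 0.97. Calls lost in some settings after siTAZ were those of KIF18A, TACC3, KIF11 and KIF23, and CKS1B was called without siTAZ replicate 2. Counts over the lists of other genes were less firm. Over all settings, 49 of 608 such counts differed from the main count by more than 1.5-fold or went to or from 0. With a library left out, 3 to 5 DREAM and MuvB genes were called lower and 1 to 3 higher after siYAP. Transport kinesins called lower after siYAP then numbered 5 to 8. Sign changes occurred in genes not called after siTAZ: KIF20B stood at -0.00500 with RLE scaling, -0.00390 with no filter and -0.00500 with DESeq2, and CCNA2 and TOP2A at 0.00954 and 0.0122 with upper-quartile scaling. With a library left out, CCNA2 ran from -0.0485 to 0.0189, CDC25C from -0.0933 to 0.0263, CDCA3 from -0.0263 to 0.0597, KIF20B from -0.0444 to 0.0386, NUSAP1 from -0.00132 to 0.0526 and TOP2A from -0.0210 to 0.0129; the cause was not tested. With the replicate number as a block the counts were 46, 31 and 46, so no call changed. Deviations of same-numbered libraries correlated at -0.031 to 0.014, so no shared deviation was seen. Whether same-numbered libraries were handled together is not stated, and these correlations cannot tell. In a window from 100 bases before to 50 after the start, CHR letters were in 69.4% of the 49 promoters against 11.7% of all promoters, and CCAAT in 61.2% against 21.3%. In the full window CHR letters were in 77.6% of the 49 against 18.7% of promoters of tested genes. Counted per gene (an alternative chosen after seeing the data), CHR letters were in 89.5% of the 38 genes against 29.1% of all genes, and CCAAT in 81.6% against 39.8%. Depth did not limit the 46 genes, but 3 libraries per group keep exact tests of ratios above 0.05, and 1 cell line and unknown counting settings limit what the levels stand for.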

Other observations

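Paralogs of the mitotic genes gave calls on both sides after siYAP: of 14 tested, 9 were called lower and 2 higher (33.4% and 33.8% of all genes), with a median log2 fold change of -0.21. SMC1A and SMC3 are also in the cohesin list, so they are counted in both. SMC1A, given there, had the smallest p of the lower paralogs. The centriole kinase PLK4 averaged 38.5 ± 3.31 CPM after siYAP against 80.8 ± 3.35 after siNT (SD, n = 3 each) and was 2.099-fold lower, and PLK2 was 1.69-fold lower. PLK3, a stress-responsive relative of PLK1, went the other way: it stood at 30.6, 29.6 and 30.6 CPM in the siYAP libraries, 12.6, 15.02 and 14.2 in the siTAZ libraries and 10.3, 10.99 and 9.397 in the siNT libraries, 2.96-fold higher after siYAP, a log2 fold change of 1.57 ± 0.11 (SE; edgeR adjusted p = 5.31e-21), and 1.36-fold higher after siTAZ. AURKC, a kinase best known from germ cells, was 2.81-fold higher after siYAP at 2.104 ± 0.729 CPM against 0.745 ± 0.389, a low level. After siTAZ 2 of the 14 were called higher, PLK3 and CDC25A (log2 fold change 0.34), and 4 lower (16.4% and 18.2% of all genes), PLK2 (-0.49) and MYBL1 (-0.27) among them.

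Of 13 genes for the phosphatases that undo mitotic phosphorylation and the Greatwall kinase pathway that restrains them, 8 were called lower and 2 higher after siYAP (33.4% and 33.8% of all genes); the median over the list was -0.17 on the log2 scale. Over the 13 genes, called or not, log2 fold changes ran from -3.47 to 1.35 after siYAP and from -0.99 to 0.37 after siTAZ. The called lower genes with the smallest p after siYAP, the catalytic subunits PPP1CC, PPP2CA and PPP1CA, stood at -0.69, -0.41 and -0.41. The CDC14 phosphatases, which counter CDK1 in yeast at mitotic exit, were the 2 higher ones: CDC14A averaged 14.9 ± 1.38 CPM after siYAP against 5.82 ± 0.701 after siNT (SD, n = 3 each), 2.55-fold, and CDC14B was 1.54-fold higher. After siTAZ 6 of the 13 were called lower (18.2% of all genes), among them ARPP19 (log2 fold change -0.45) and PPP2CA (-0.44), and 1 higher (16.4% of all genes), PPP1CB (0.12).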
